A study of Rattus norvegicus with 92 samples.

Results

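The adrenal gland was examined in male Wistar-Kyoto rats that breathed acrolein, an irritant aldehyde of smoke and exhaust, or filtered air. Of the 92 samples in the series, 10 were adrenal glands, taken from 6 rats in air and 4 rats in acrolein. All 10 samples were used, and they were chosen by their labels alone. The members described here were the 19411 of 20508 rows of the adrenal table that were above 0 in at least 2 of these samples.

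Rats were adult and inhaled through the nose only for 4 h in all. The air group received 0 ppm acrolein throughout. In the acrolein group the concentration began at 0 ppm and climbed to 0.1 ppm, to 0.316 ppm and on to 1 ppm, with 7.5 minutes per step, and was then held at 3.16 ppm for 3.5 h. Glands were taken after exposure, and the study's methods place every necropsy in the first 2 h after its end. The data therefore describe the end of the exposure and at most these 2 h, with no later time. The labels name no genetic change and no drug in either group. The labels do not say whether a sample was 1 gland or both, and nothing in them separates cortex from medulla. Replicate numbers were 2, 3, 5, 6, 7 and 8 in air and 9 to 12 in acrolein. P-values measure the spread between these samples, which the study's methods describe as coming from separate rats.

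The adrenal gland is the end organ of both arms of the stress response. Its cortex turns cholesterol into steroid hormones, chiefly corticosterone in the rat, when the pituitary hormone ACTH reaches it through the blood. Its medulla consists of chromaffin cells, relatives of sympathetic neurons, which release adrenaline and noradrenaline on nerve stimulation. The comparison asks whether the transcripts of this gland differ at or shortly after the end of an acrolein exposure.

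The table lists 19719 Ensembl transcript identifiers and 789 gene identifiers without symbols, and the reference tables at hand paired 0 of them with a symbol. Steroid enzymes, chromaffin markers and other gene lists were therefore not analysed here, and rows are grouped by the tissue in which their level was highest in the 8 tables of the series. A value is a normalized count, which is a read count divided by 1 size factor per sample. The reads behind these values numbered from 6665417 to 12808143 per sample in air (9468864 ± 2640754, SD, n = 6) and from 8689497 to 16918736 in acrolein (13552633 ± 3497385, SD, n = 4). The mean depth was higher in acrolein, with a two-sided exact permutation p of 0.0571 over 210 arrangements. Correlations of log2 values between 2 samples ran from 0.888 to 0.974 within air, from 0.908 to 0.964 within acrolein and from 0.909 to 0.965 between the groups. The range between the groups lay inside that within air. On the first principal component, which held 23.6% of the variance, acrolein samples lay from -8.04 to 53.0 and air samples from -48.6 to 35.9. Air replicates 2 and 8 lay among the acrolein samples on this axis.

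The labelled tissue was checked by the rows themselves, since no marker could be named. There were 22 adrenal-restricted rows, defined by a mean of at least 500 normalized counts in adrenal and less than 1 part in 20 of it in the mean of each of the 7 other tissues. Their lowest value in any adrenal sample was 311 normalized counts. In no adrenal sample did any of them come below 4.73 times its highest mean in another tissue. All 10 samples therefore carried the profile that sets the adrenal table apart, although the tables were normalized separately and the 22 rows were chosen from the adrenal means.

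These 22 rows made up 10.4%, 6.08%, 5.89%, 8.59%, 7.77% and 9.31% of the normalized counts in air replicates 2, 3, 5, 6, 7 and 8. In acrolein replicates 9 to 12 they made up 7.86%, 9.99%, 10.2% and 11.4%. The groups overlapped, with air replicates 3 and 5 lowest and acrolein replicate 12 highest. The 5 with the most normalized counts are named here, without comparing their levels, since counts were not corrected for transcript length. ENSRNOT00000020606 had a mean of 228276 normalized counts over the 10 glands, 844 times its mean in adipose tissue, the next tissue. ENSRNOT00000066363 had 227678, which was 255 times its mean in adipose tissue. ENSRNOT00000099698 had 86192, ENSRNOT00000013423 had 77365 and ENSRNOT00000010831 had 62723 normalized counts.

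Adipose-restricted rows differed far more between glands than the adrenal rows did. The rat adrenal lies in fat, and 16 adipose-restricted rows, chosen in the same way from the adipose table with adrenal left free, were taken as a measure of fat RNA. Whether cells of the gland itself hold transcripts of these 16 rows was not tested. Their median share of the adipose level was 41283, 96177, 86783, 55205, 11696 and 2119 ppm in air replicates 2, 3, 5, 6, 7 and 8. It was 47678, 33406, 3699 and 5795 ppm in acrolein replicates 9 to 12. The groups overlapped widely, but 3 air glands and no acrolein gland were above 50000 ppm. Shares of other tissues were smaller. Liver-restricted rows reached at most 1942 ppm in air and 2686 ppm in acrolein, lung-restricted rows 3314 and 1431 ppm, muscle-restricted rows 263 and 111 ppm, and nasal-restricted rows 183 and 130 ppm. In bulk tissue, fewer cells of a type and less RNA per cell cannot be told apart.

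**Figure D1:**
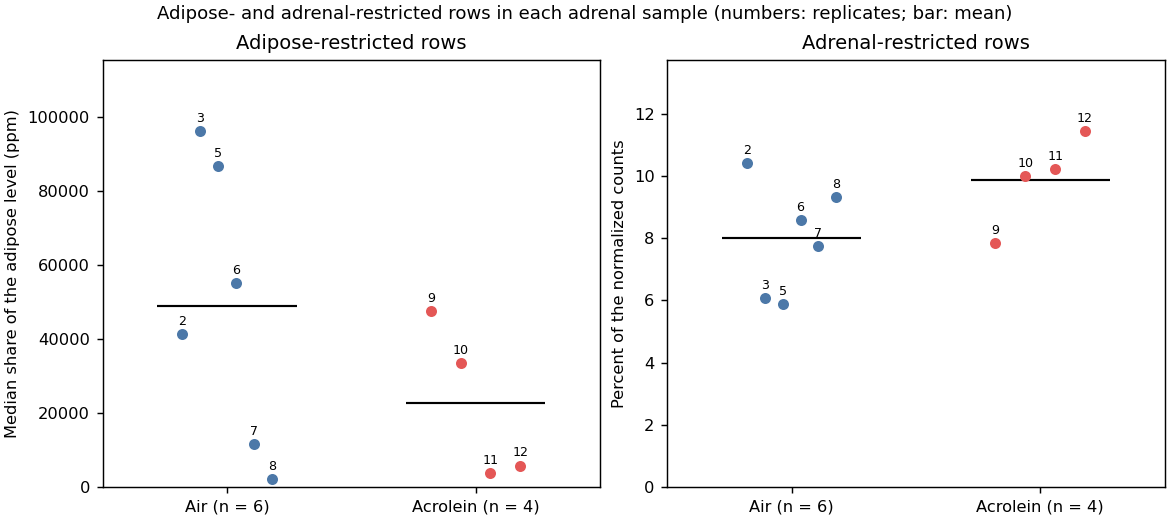
Left, median level of 16 adipose-restricted rows in each adrenal sample, in ppm of their level in adipose tissue. Right, percent of the normalized counts in 22 adrenal-restricted rows; points are samples with their replicate number and bars are group means. Air replicates 3 and 5 are highest in adipose rows, at 96177 and 86783 ppm, and lowest in adrenal rows, at 6.08% and 5.89%.

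No row of the adrenal table passed the main test between acrolein and air. With limma, 0 of 19411 rows (0%) met both limits for a call, an adjusted p no higher than 0.1 and a change of more than 1.2-fold in either direction, and the lowest adjusted p was 0.649. At an unadjusted p under 0.05 there were 1464 rows, 7.54% of those tested, of which 645 (3.32%) were higher and 819 (4.22%) were lower in acrolein. By edgeR on the reads, 0 of 14361 rows were called, the lowest adjusted p was 0.535, and 1313 rows had an unadjusted p under 0.05. By DESeq2 on the same reads 18 of 14462 rows with an adjusted p were called (0.124%), 6 higher and 12 lower. DESeq2 is the tool that the study's methods name for these limits. The values of the 2 groups did not overlap in 255 rows (1.31%), of which 112 (0.577%) were higher and 143 (0.737%) were lower. The median log2 fold change of all tested rows was -0.01. The size factors set the typical row near no change, so this median cannot show whether higher and lower levels were balanced. Rescaling every sample to the same total moved that median to -0.15 and left 247 rows higher and 1345 lower at an unadjusted p under 0.05, with 0 called.

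How closely these 10 glands fixed the difference of a row depended on its level. The intervals given here are per row and unadjusted, whereas a call needed an adjusted p over all tested rows. A 2-fold difference could therefore go uncalled at any level. ENSRNOT00000117523, with a log2 fold change of 1.07 (standard error 0.24), had an adjusted p of 0.649 by limma. For 9132 of the 14147 rows that averaged 10 normalized counts or more (64.6%), the 95% confidence interval of the fold change lay within 2-fold either way. The share was 81.5% for means from 100 to 1000 and 84.5% above that, with median standard errors of 0.22 and 0.20 on the log2 scale. Below a mean of 10 it was 5.30%, so at that depth 2-fold differences were mostly not detectable. Intervals within 1.5-fold were found for 22.4% of rows with a mean of at least 10. The within-group SD of log2 values had a median of 0.35 over the 10860 rows that averaged 50 normalized counts or more. It was above 1 in 384 of these rows. Of those 384 rows, 11.5% had their highest level in adipose tissue, against 2.59% of all 10860.

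**Figure D2:**
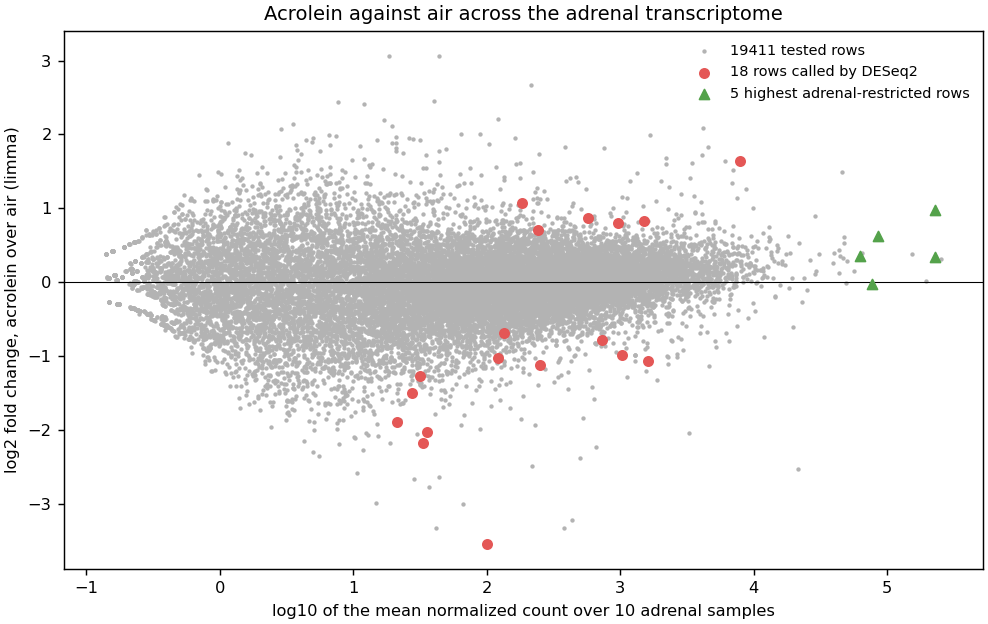
Each grey point is 1 of 19411 rows, with log10 of its mean normalized count over 10 adrenal samples on the x axis and its limma log2 fold change (acrolein over air, on the log2 of value plus 1 scale) on the y axis. Red points are the 18 rows that DESeq2 called and green triangles are the 5 highest adrenal-restricted rows, whose log2 fold changes lie between -0.02 and 0.97.

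Of the 10860 rows that averaged 50 normalized counts or more, 164 had no overlap between the groups, 92 higher and 72 lower in acrolein. Over all tested rows 1.31% did not overlap. Of the 164, the 2 with the largest positive and the 2 with the largest negative log2 fold change are described next. Because non-overlap and the size of the fold change chose them, their values are a description. None of the 4 passed the adjusted limit in limma or edgeR.

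ENSRNOT00000117523 had 184, 124, 98.7, 110, 126 and 112 normalized counts in air replicates 2, 3, 5, 6, 7 and 8. In acrolein replicates 9 to 12 it had 192, 415, 235 and 241. Air replicate 2 came close to the lowest acrolein gland, and acrolein replicate 10 was well above the rest. Its log2 fold change was 1.07 (standard error 0.24), with an adjusted p of 0.649 by limma and 0.0636 by DESeq2. Over both groups this transcript had its highest tissue mean in adrenal, 1.15 times its mean of 160 in liver. In air alone its adrenal mean was 126, below that liver mean.

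ENSRNOT00000085161 had 37.2, 65.3, 52.0, 32.6, 67.2 and 45.7 normalized counts in air, in the same order. The acrolein glands had 96.5, 124, 78.7 and 96.0, all above the highest air gland. The log2 fold change was 1.00 (standard error 0.27), with adjusted p of 0.649 by limma and 0.174 by DESeq2. In these tables its mean was highest in hippocampus, at 3520 normalized counts, followed by 716 in muscle and 432 in hypothalamus, with 69.6 in adrenal.

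ENSRNOG00000062339 was lower in acrolein, at 67.3, 4.29, 47.2 and 59.9 normalized counts. Air glands lay close together at 103, 106, 85.7, 86.4, 107 and 108. The difference rested in part on acrolein replicate 10, which held 6 reads of this gene. The log2 fold change was -1.64 (standard error 0.57) with all samples and -0.77 without acrolein replicate 10. Adjusted p was 0.649 by limma and 0.384 by DESeq2.

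ENSRNOT00000004673 had 106, 546, 301, 178, 132 and 100 normalized counts in air replicates 2, 3, 5, 6, 7 and 8, against 90.2, 72.2, 76.3 and 99.5 in acrolein. Air replicate 8 and acrolein replicate 12 differed by under 1 normalized count, so the groups were apart only just. The air glands spread more than 5-fold, and the 2 highest were replicates 3 and 5, which also had the highest adipose shares. The row's own mean in adipose tissue was 117 normalized counts, below its adrenal mean of 170. Its highest tissue mean was 1534, in nasal epithelium. The log2 fold change was -1.14 (standard error 0.41), with adjusted p of 0.649 by limma and 0.213 by DESeq2. It was -0.91 with the adipose share as a covariate and -0.41 without air replicates 3, 5 and 6, the 3 glands above 50000 ppm in adipose share.

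A pair of further rows was chosen after their values were seen, the first for its p and the second for a call under another filter. ENSRNOT00000118086 had the lowest unadjusted p with each of limma, edgeR and DESeq2. It had 401, 345, 505, 438, 503 and 418 normalized counts in air and 808, 827, 826 and 710 in acrolein. Every acrolein gland exceeded the highest air gland by more than 200 normalized counts. The log2 fold change was 0.87 (standard error 0.15), with adjusted p of 0.649 by limma, 0.535 by edgeR and 0.00166 by DESeq2. Over both groups this transcript is most abundant in liver, at 1707 normalized counts, and adrenal comes next with 578. In air alone its adrenal mean was 435, below its mean of 495 in adipose tissue. Among the 18 rows DESeq2 called, it was the 1 that remained called with any of the 10 samples left out.

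ENSRNOT00000023645 had 149, 166, 168, 161, 148 and 165 normalized counts in air and 92.3, 110, 102 and 92.4 in acrolein. Neither group spanned more than 20 normalized counts, and the gap between them was larger than either. The log2 fold change was -0.68 (standard error 0.17), with adjusted p of 0.649 by limma, 0.535 by edgeR and 0.0636 by DESeq2. Limma called it when no filter on low values was used (adjusted p = 0.0969). Its highest mean is in hypothalamus, at 3679 normalized counts, and its adrenal mean was 135.

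**Figure D3:**
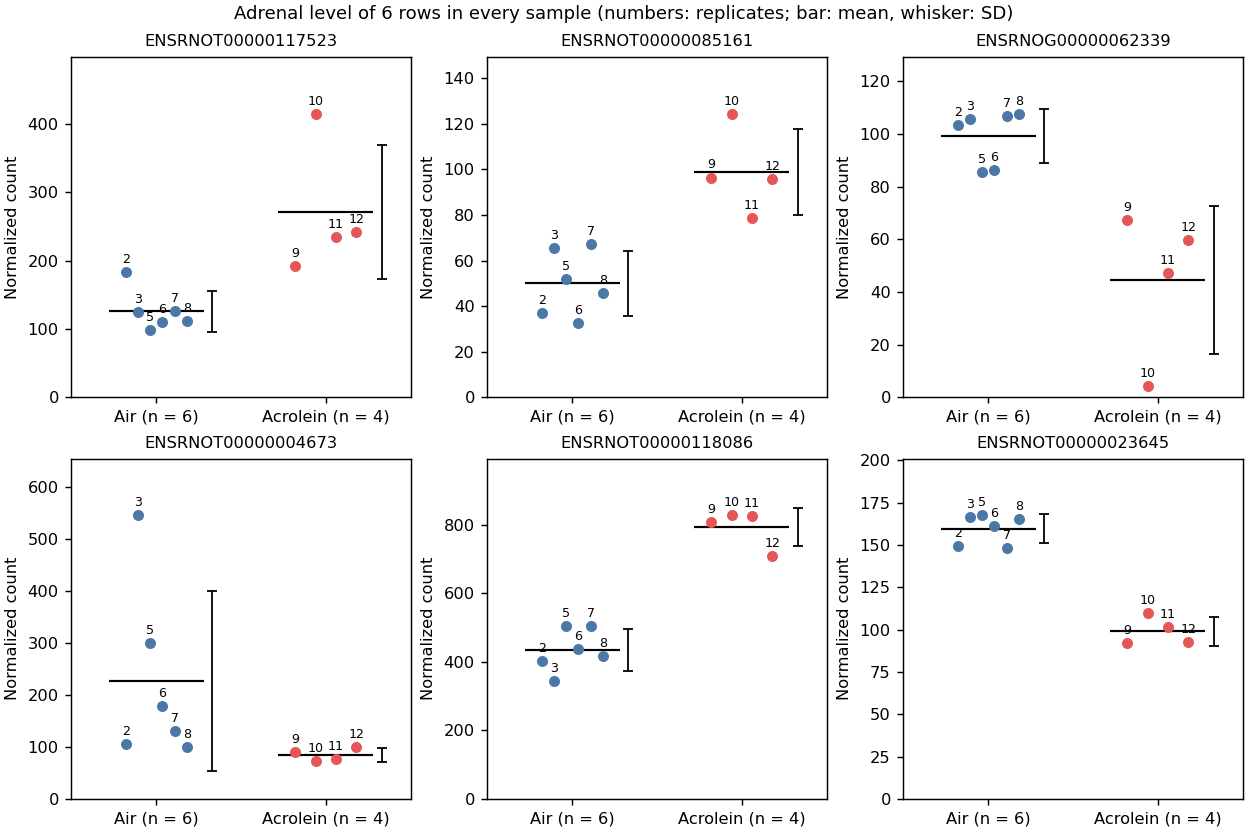
Normalized counts (linear axis from 0) of 6 rows in 6 air and 4 acrolein glands; points carry the replicate number, bars are means and whiskers are SD. The groups do not overlap in any of the 6, and limma's adjusted p was 0.649 for each.

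All 18 rows that DESeq2 called had an unadjusted p under 0.05 with limma and with edgeR, and in 15 of them the groups did not overlap. Over all tested rows 1.31% did not overlap. DESeq2 chose the 18 from the same samples, so these counts describe the choice and are no separate support. The means of the 18 rows ran from 21.3 to 7859 normalized counts, and the smallest log2 fold change by size was -0.69. The largest positive one by DESeq2 was 1.71 (standard error 0.44, adjusted p = 0.0989) for ENSRNOT00000023554. Over both groups that row had means of 7859 normalized counts in adrenal, 6783 in hippocampus, 6486 in hypothalamus and 5006 in liver. Its adrenal mean in air alone was 4127, below those of the other 3 tissues. It had 2254, 2607, 4445, 2475, 4021 and 8958 normalized counts in air and 6012, 27434, 11679 and 8699 in acrolein. Air replicate 8 lay above 2 of the 4 acrolein glands, so the groups overlapped. The largest negative one was -4.60 (standard error 1.15, adjusted p = 0.0636 by DESeq2) for ENSRNOT00000004279. That row had means of 831 normalized counts in nasal epithelium, 534 in muscle, 282 in adipose tissue and 101 in adrenal. It had 3.64, 168, 587, 144, 27.7 and 47.2 normalized counts in air against 4.16, 1.43, 18.2 and 3.52 in acrolein. Air replicate 2 was as low as the acrolein glands, with the other 5 air glands above them. The 3 highest values were in air replicates 3, 5 and 6, the glands of highest adipose share. Without these 3 glands the limma log2 fold change of this row went from -3.55 to -1.69, and with the adipose share as a covariate it was -3.39. Both rows were chosen as the ends of the range.

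How many rows DESeq2 called turned on single glands. Of the 18, the number still called was 18 without air replicate 2 or 8, 12 without air replicate 7, 3 without air replicate 3, and 2 without air replicate 5 or 6. It was 11 without acrolein replicate 9, 17 without acrolein replicate 11, and 1 without acrolein replicate 10 or 12. Leaving out air replicate 8 raised the number of rows called to 540, and leaving out acrolein replicate 10 or 12 lowered it to 1. The limma count at an unadjusted p under 0.05 moved likewise, from 1464 to 2375 without air replicate 8, to 810 without acrolein replicate 10 and to 838 without acrolein replicate 12. In limma 0 rows were called in each of these 10 fits. With the 3 air glands above 50000 ppm in adipose share set aside, 500 rows had an unadjusted p under 0.05, limma called 0, and DESeq2 called 1 row, which was not among the 18. With the adipose share as a covariate DESeq2 called 16 rows, 11 of them among the 18.

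**Figure D4:**
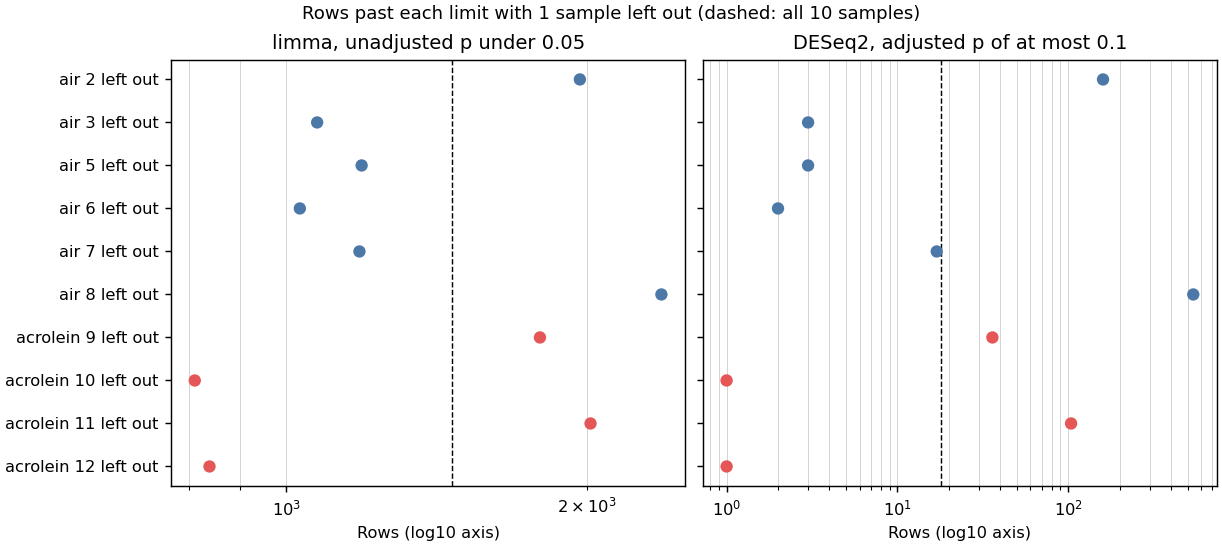
Number of rows (log10 x axis) at an unadjusted p under 0.05 in limma (left) and called by DESeq2 at an adjusted p of at most 0.1 (right) with each named sample left out; dashed lines mark all 10 samples, at 1464 and 18 rows. Without air replicate 8 the counts are 2375 and 540, and without acrolein replicate 10 they are 810 and 1.

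Most adrenal-restricted rows had the higher level in acrolein, but none passed the test and the balance depended on the scaling. Of the 22 adrenal-restricted rows 0 were called, 16 had a log2 fold change above 0 and 6 below it, and the median was 0.25, beside -0.01 over all tested rows. The values ran from -0.80 to 1.19, and the intervals of 12 rows lay within 2-fold. The median was 0.13 without acrolein replicate 12, 0.10 on equal totals, 0.15 with the adipose share as a covariate and 0.09 without the 3 air glands of highest adipose share, and quantile normalization turned it to -0.07. ENSRNOT00000020606 had between 108752 and 259978 normalized counts in air, with a median of 143207, and 208070, 393067, 259446 and 424180 in acrolein. Its highest air gland was replicate 8, above acrolein replicates 9 and 11. The log2 fold change was 0.97 (standard error 0.55, adjusted p = 0.671 by limma). That of ENSRNOT00000099698 was 0.63 (standard error 0.39), of ENSRNOT00000010831 0.35 (0.35), of ENSRNOT00000066363 0.34 (0.55) and of ENSRNOT00000013423 -0.02 (0.36). Quantile normalization turned the sign of ENSRNOT00000066363 and ENSRNOT00000010831, to -0.20 and -0.01.

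An unadjusted p under 0.05 was reached by 3 of the 22 rows in limma, all with the higher mean in acrolein, where the same was true of 3.32% of all rows. ENSRNOT00000117198 had from 14213 to 27543 normalized counts in air and 27784, 68580, 20722 and 48529 in acrolein, a log2 fold change of 0.89 (standard error 0.36). Acrolein replicate 11 lay inside the air range. ENSRNOT00000016475 had 4137 ± 804 normalized counts (SD, n = 6) in air and 5959 ± 1874 (SD, n = 4) in acrolein, and ENSRNOT00000074269 had 820 ± 173 (SD, n = 6) and 1155 ± 334 (SD, n = 4). Each of the 3 rows missed that limit after quantile normalization and without the 3 air glands of highest adipose share. ENSRNOT00000117198 and ENSRNOT00000074269 also missed it without acrolein replicate 10, and ENSRNOT00000016475 without acrolein replicate 11, among other samples. In none of the 22 rows were the groups apart without overlap, where this held for 1.31% of all tested rows. The 50 rows of highest mean in the gland, 12 of which were adrenal-restricted, had a median log2 fold change of 0.29, with 39 above 0, 2 at an unadjusted p under 0.05 and 0 called. Under quantile normalization their median was -0.02.

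Chromaffin cells share part of their transcripts with neurons, so rows found in adrenal and in both brain regions, but low in the 5 other tissues, were counted too. There were 19 such rows, 2 of them also adrenal-restricted. Of these 2, ENSRNOT00000110392 had a mean of 578 normalized counts in liver, against 201 in hypothalamus and 206 in hippocampus. ENSRNOT00000095244 had 1202 in lung, against 1749 and 1465 in these brain regions. The median log2 fold change of the 19 was 0.15, with 15 above 0 and 4 below, 2 at an unadjusted p under 0.05 (ENSRNOT00000001185 at 0.60 and ENSRNOT00000038653 at 0.53) and 0 called. Those 2 were 10.5% of the 19, beside 7.54% of all rows at that limit in either direction. The median was 0.04 without air replicate 5, 0.02 without the 3 air glands of highest adipose share and -0.0029 on equal totals. The 19 rows made up from 0.736% to 1.56% of the normalized counts in air and from 0.809% to 1.40% in acrolein, with air replicate 8 highest. The 2 adrenal-restricted rows weigh most in these percents, with the highest adrenal means of the 19, 47997 and 29127 normalized counts. Which of these rows belong to chromaffin cells was not tested.

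**Figure D5:**
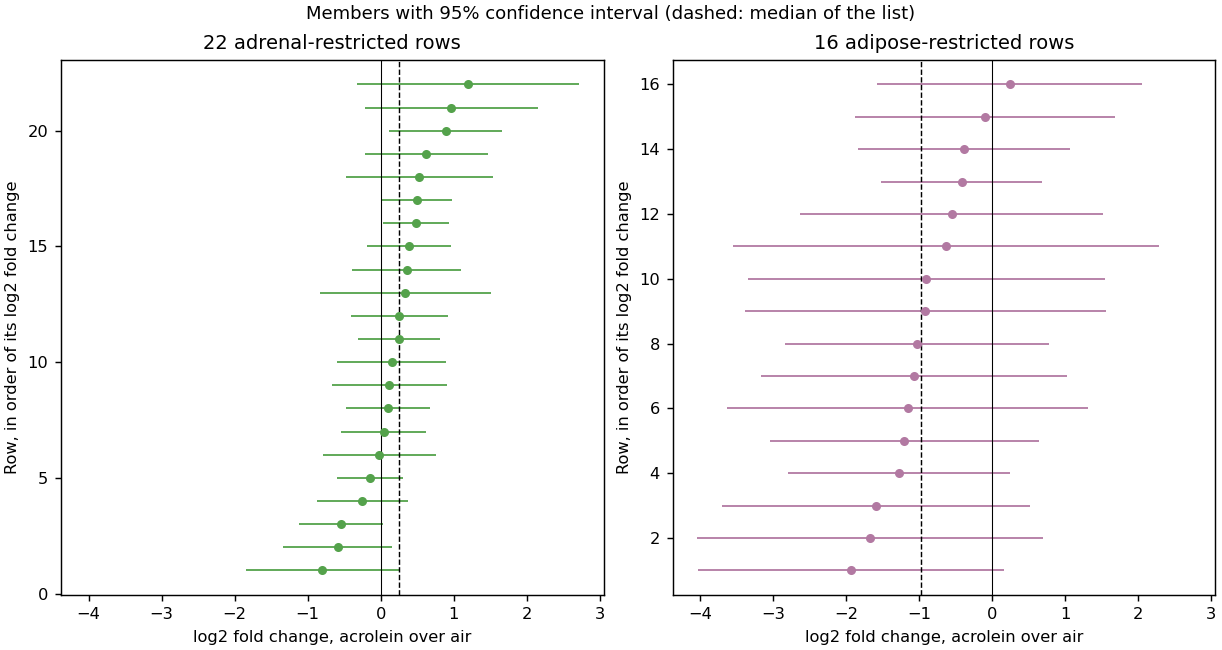
Log2 fold change (acrolein over air) of each of 22 adrenal-restricted rows (left) and 16 adipose-restricted rows (right) with its 95% confidence interval; rows are in order of their value and the dashed line is the median, 0.25 and -0.97. The interval of each adipose-restricted row includes 0.

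Most adipose-restricted rows had the lower level in acrolein, with wide intervals. Of the 16 adipose-restricted rows, 15 had a log2 fold change below 0 and the median was -0.97, yet 0 were called and 0 had an unadjusted p under 0.05 (by limma). The standard errors of these rows had a median of 0.97 on the log2 scale. With the 3 air glands of highest adipose share set aside the median was 0.26, and it was -0.27 without acrolein replicate 11. Liver-restricted rows had a median log2 fold change of 0.56, with 239 of 284 tested rows above 0. That median was 0.12 without acrolein replicate 12, the gland with the highest liver share, and 0.19 with a pseudocount of 10. Of these 284, 10 were higher and 1 lower at an unadjusted p under 0.05, and 0 were called. Liver rows at that limit were 3.87% of those tested, beside 7.54% of all rows. Their median level was 6.46 normalized counts. Muscle-restricted rows had a median of -0.27 over 121 tested rows, with 1 higher and 10 lower at that limit (9.09%), and the median was -0.06 without the 3 air glands of highest adipose share. Lung-restricted and nasal-restricted rows had medians of -0.04 and 0.01, over 30 and 64 tested rows. They had 1 and 4 rows higher and 2 and 3 rows lower at an unadjusted p under 0.05, or 10% and 10.9% of those tested. Both medians took either sign under the alternatives.

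All tested rows were also sorted by the tissue of their highest mean, a grouping that takes in the restricted rows. These means took in both exposure groups. A row higher in acrolein could thus enter the adrenal class through its acrolein glands, and a lower one could leave it. ENSRNOT00000117523 entered in this way, with an adrenal mean of 126 normalized counts in air and a liver mean of 160. The balance of higher and lower rows in the adrenal class is therefore partly set by the grouping. Of 1086 rows highest in adrenal, 103 (9.48%) were higher and 25 (2.30%) lower in acrolein at an unadjusted p under 0.05, and the median log2 fold change was 0.16. For all rows these shares were 3.32% and 4.22%. Of 545 rows highest in adipose tissue, 11 (2.02%) were higher and 36 (6.61%) lower, with a median of -0.24. Of 3160 rows highest in hypothalamus, 63 (1.99%) were higher and 174 (5.51%) lower, with a median of -0.10. The adrenal counts moved with single glands, to 38 and 13 without acrolein replicate 12 and to 208 and 40 without air replicate 8. Counts over all rows moved in the same fits, to 349 and 489 and to 1124 and 1251. Without the 3 air glands of highest adipose share the adrenal counts were 18 and 14 of 1085 rows, with a median of 0.08. All rows gave 213 and 287 of 18997 in that fit, which had fewer air glands. With the adipose share as a covariate the adrenal counts were 68 and 27, beside 615 and 752 for all rows. On equal totals the adrenal counts were 50 and 43, with a median of 0.01. All rows then gave 247 and 1345, with a median of -0.15. The part of fat in these counts was not tested further.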

How the data were processed

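RNA-seq of adrenal glands from 6 air-exposed and 4 acrolein-exposed rats was used as deposited. Per the labels and the study's methods, polyadenylated RNA was sequenced on a NextSeq 500, mapped to rat genome build rn7 in Partek Flow (R 4.1.3 in the submitters' processing notes), and normalized by the authors with DESeq2. In unit terms the deposited table is a signal, in which each sample's read counts were divided by 1 size factor. Division by the smallest step of each sample gave whole reads for 100% of values (tolerance 0.1 read), and size factors recomputed from these reads differed from the deposited ones by at most 0.000342%.

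Rows above 0 in at least 2 samples were tested on log2(value + 1) with limma 3.58.1 (trend, Benjamini-Hochberg adjustment) in R 4.3.3. Calls needed an adjusted p no higher than 0.1 and a fold change over 1.2 or under 0.833. These limits come from the study's methods, which used them with DESeq2 and not with limma. The added 1 shrinks the fold changes of rows with few counts. edgeR 4.0.16 (quasi-likelihood, TMM) and DESeq2 1.42.0 served as alternatives on the recovered reads, and DESeq2 left 6046 rows without an adjusted p. The fits were tested on simulated data. Depth was compared with SciPy 1.17.1. Levels of 1025 rows were identical to another row in all 10 samples, 22 of them with a mean of at least 10, so reads of such pairs cannot be told apart.

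The rule for named rows was the 2 highest and 2 lowest log2 fold changes among rows with a mean of at least 50 and no overlap, and rows called by both edgeR and DESeq2 (0 rows). Identifiers could not be paired with symbols, so the planned symbol lists and marker lists were not computed, and lists are by tissue profile. Rows shared with both brain regions, added later, had at least 200 normalized counts in adrenal and in each brain region, and under 1 part in 20 of the adrenal mean in the 5 other tissues. The members and lists were chosen with earlier results of these data known. Each tissue table was normalized separately, so levels and shares set across tables are on each table's own scale.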

Additional observations from a re-analysis of the deposited data

Results flagged for a closer look

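Samples far from the rest of their group were looked for in 50 groups of values (Dixon's limit), and 8 values were found. Chance alone would give about 1 such value in 20 groups. The nasal-restricted share was 183 ppm in air replicate 5 and 0 ppm in every other air gland. ENSRNOT00000117523 had 184 normalized counts in air replicate 2 and 126 in the gland closest to it. ENSRNOT00000118086 had 710 normalized counts in acrolein replicate 12, the lowest of its group, against 808 in the next. Acrolein replicate 9 was the lowest of its group in 2 adrenal-restricted rows, with 82743 normalized counts of ENSRNOT00000099698 against 113987 in the next gland and 59762 of ENSRNOT00000013423 against 81438. Air replicate 8 held 8958 normalized counts of ENSRNOT00000023554, where the nearest air gland held 4445. Air replicate 5 held 587 of ENSRNOT00000004279, where the nearest air gland held 168. For the same row the acrolein group had 18.2 in replicate 11 and 4.16 in the gland closest to it.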

How the results depend on the processing

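The number of rows called was 0 with limma and became 4 with no filter on low values, 1 with limma without a trend and 18 with DESeq2. Of the 4, 3 had at most 5.005 normalized counts in any sample and the other was ENSRNOT00000023645. The 1 row called without a trend was among these 3. The count stayed at 0 with either other pseudocount, a mean of at least 10, quantile normalization, equal totals, sample weights, edgeR, an adjusted p of at most 0.05, no fold change limit, the adipose share as a covariate and each sample left out (0 to 0). The 1464 rows at an unadjusted p under 0.05 became 2545 with sample weights and 500 without the 3 glands of highest adipose share, and between 810 and 2375 on leaving out any 1 sample. DESeq2's 18 called rows became between 1 and 540 on leaving out any 1 sample, and were 16 with the adipose share as a covariate and 1 without those 3 glands. The cause of these changes was not tested. The share of rows at an unadjusted p under 0.05 that were higher was 44.1%, 51.6% after quantile normalization and 15.5% on equal totals. With stricter limits for restricted rows (under 1 part in 100), the median muscle share was 14.8 ppm in air and 8.08 ppm in acrolein, and the lung share in acrolein was 359 ppm. ENSRNOT00000117523, ENSRNOT00000118086, ENSRNOT00000023554, ENSRNOT00000004279 and ENSRNOT00000023645 passed the limit with DESeq2 alone among their alternatives, apart from ENSRNOT00000023645 with no filter, and the log2 fold change of ENSRNOT00000118086 ran from 0.72 to 0.93 over 22 alternatives. Alternatives that use the adipose share, and the fits of DESeq2 beyond that on all samples, were chosen after seeing the data. No paired analysis was possible because no replicate number occurs in both groups. Rows under 10 normalized counts were mostly unresolved at 2-fold.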
